A study of Mus musculus with 11 samples.

Results

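Gene-proximal regions of acetylation at lysine 27 of histone H3 (H3K27ac) were examined in the mouse pre-T line Beko after treatment with apicidin or with a gamma-secretase inhibitor. A region was counted as gene-proximal where it lay more than 1 kb and at most 10 kb from the transcription start site (TSS) that the authors assigned to it, was under 5000 bp wide and had no overlap with an RBPJ site. These criteria held for 15937 of the 56342 regions in the authors' deposited table, assigned to 6423 of 12081 gene symbols. None of the criteria used a treatment effect. H3K27ac was measured by chromatin immunoprecipitation and sequencing after 24 h with apicidin at 0.01 mg/ml, with DAPT (the gamma-secretase inhibitor, GSI) at 10 mg/ml, or with DMSO, the doses as labelled. Each of these 3 conditions had 2 libraries for H3K27ac and 1 input, and RBPJ was mapped in DMSO cells with 2 libraries. All groups are the same cell line. No label states that replicate libraries were grown as separate cultures, and every p-value therefore reflects library-to-library spread alone, which may be technical.

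H3K27ac is placed by the acetyltransferases p300 and CBP, removed by histone deacetylases, and found at active promoters and enhancers. Regions a few kb from a start site can be the flanks of an acetylated promoter domain, enhancers in the first intron or upstream of the gene, or elements of a neighbouring gene. Apicidin is a cyclic peptide that inhibits class I histone deacetylases, and the study's design text names it as an inhibitor of HDAC3, the catalytic subunit of the NCoR/SMRT corepressor complexes. Gamma-secretase releases the intracellular part of Notch receptors, which then acts in the nucleus through the DNA-binding protein RBPJ. Notch signalling drives commitment to the T lineage, so a pre-T cell line is a setting in which its loss can be followed.

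The 4 promoters shown here belong to genes whose proximal regions moved together or moved against the promoter. They are the 150 bases before the start site, read 5′ to 3′ on the strand of the gene from RefSeq's promoter table for GRCm38.p6. All H3K27ac coordinates given elsewhere are on mm9, and the 2 builds are not interchangeable. Capitals mark CpG dinucleotides, which are dense in the promoters of broadly active genes and sparse in those of many tissue-restricted genes. Ccr9 (chromosome 9, 123767061 to 123767210, plus strand) and Aff4 (chromosome 11, 53350617 to 53350766, plus strand) had many regions that rose with apicidin. Notch3 (chromosome 17, 32166891 to 32167040, minus strand) had regions that fell with GSI, and Abhd15 (chromosome 11, 77514967 to 77515116, plus strand) had a region that rose with GSI while the region over its start fell.
Ccr9: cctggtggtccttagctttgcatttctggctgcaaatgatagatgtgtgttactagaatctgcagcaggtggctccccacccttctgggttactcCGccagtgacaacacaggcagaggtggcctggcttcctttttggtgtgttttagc
Aff4: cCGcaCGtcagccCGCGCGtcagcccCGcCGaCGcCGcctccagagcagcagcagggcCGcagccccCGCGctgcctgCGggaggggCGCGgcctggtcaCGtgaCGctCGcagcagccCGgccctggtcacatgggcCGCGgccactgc
Notch3: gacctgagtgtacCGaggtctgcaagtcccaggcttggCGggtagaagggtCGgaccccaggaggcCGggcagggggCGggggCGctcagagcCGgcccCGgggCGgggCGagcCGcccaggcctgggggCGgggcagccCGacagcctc
Abhd15: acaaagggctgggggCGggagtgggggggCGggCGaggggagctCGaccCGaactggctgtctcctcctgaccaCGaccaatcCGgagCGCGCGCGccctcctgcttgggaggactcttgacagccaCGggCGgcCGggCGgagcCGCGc
The Ccr9 stretch holds 1 CpG and is 52.0% G or C, against 21 CpG and 79.3% for Aff4, 13 and 77.3% for Notch3, and 17 and 74.0% for Abhd15. The median over the same stretch of all 27025 promoters in that table was 4 CpG and 54.0% G or C.

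Gene-proximal regions were weak and narrow. Their base mean, the authors' mean of normalised read counts over libraries, had a median of 39.7, against 61.3 for all regions. Their quartiles were 24.6 and 86.3, and the whole range was 6.80 to 2866. Width had a median of 451 bp and distance to the TSS a median of 4218 bp. The side of the TSS on which a region lies was not used. Of the 6423 genes, 2621 had 1 such region, 3802 had 2 or more and 851 had 5 or more. Acot7, which encodes an acyl-CoA thioesterase, had the most with 18, followed by Fbxw7 with 16.

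The labelled cell type was checked against marker genes over the whole table. All 12 pre-T markers had at least 1 region, and the base mean of each marker's strongest region ranged from 222 to 8020. For the other cell types, 4 of 6 B-lineage markers had a region (strongest 45.2 to 260), as did 1 of 6 myeloid markers (Itgam, 1245) and 2 of 4 erythroid markers (163 to 871). Pax5, Ms4a1, Spi1, Csf1r, Lyz2, Mpo, Cebpa, Hba-a1 and Hbb-b1 had none. Depth per library is unknown, since only summaries over libraries were analysed here. Fold changes are relative to the authors' normalisation, which may remove a change common to all regions, and fewer cells with the mark cannot be told apart from less of the mark per cell.

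With apicidin, gene-proximal regions were more often higher than lower. The question of that comparison is which H3K27ac depends on histone deacetylase activity. At an adjusted p under 0.05 in the authors' deposited table, 1383 of 15937 were higher and 981 lower (8.68% and 6.16%), and 13573 were not called. Over all 56342 regions the same calls gave 23.8%, of which 9.69% were higher and 14.1% lower. Gene-proximal regions were thus called less often than the table as a whole, and their calls leaned the other way, with 58.5% of them higher against 40.7% for all regions. The median log2 fold change was 0.16 for gene-proximal regions (quartiles -0.20 and 0.52) and 0.00 for all regions. Called regions had median log2 fold changes of 0.94 when higher and -0.76 when lower. Of the higher ones 609 changed by at least 1 on the log2 scale, against 260 of the lower ones.

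How far the balance leaned depended on where the scale was set to 0. The stronger regions of the table, those with a base mean no lower than its median, had a median of -0.0991 with apicidin. Centring on them made 72.2% of the called gene-proximal regions higher (54.9% of calls over all regions), and subtracting the trend over base mean made 65.5% higher (52.2% over all regions). With 1 region per gene, that of highest base mean, 54.3% of calls were higher. Among regions strong enough to be tested in both comparisons, 856 were higher and 770 lower, and their median was 0.03.

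The shift with apicidin grew smaller with distance from the start site. At 1 to 2 kb (each class includes its upper limit) the median log2 fold change was 0.31, with 260 of 2834 regions higher and 101 lower. At 2 to 5 kb it was 0.18, with 587 of 6545 higher and 309 lower. At 5 to 10 kb it was 0.06, with 536 of 6558 higher and 571 lower, so that decreases were no longer the smaller group. Distance classes were compared as a description, with no test. With GSI the medians of the same classes were 0.02, 0.01 and 0.00.

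**Figure D1:**
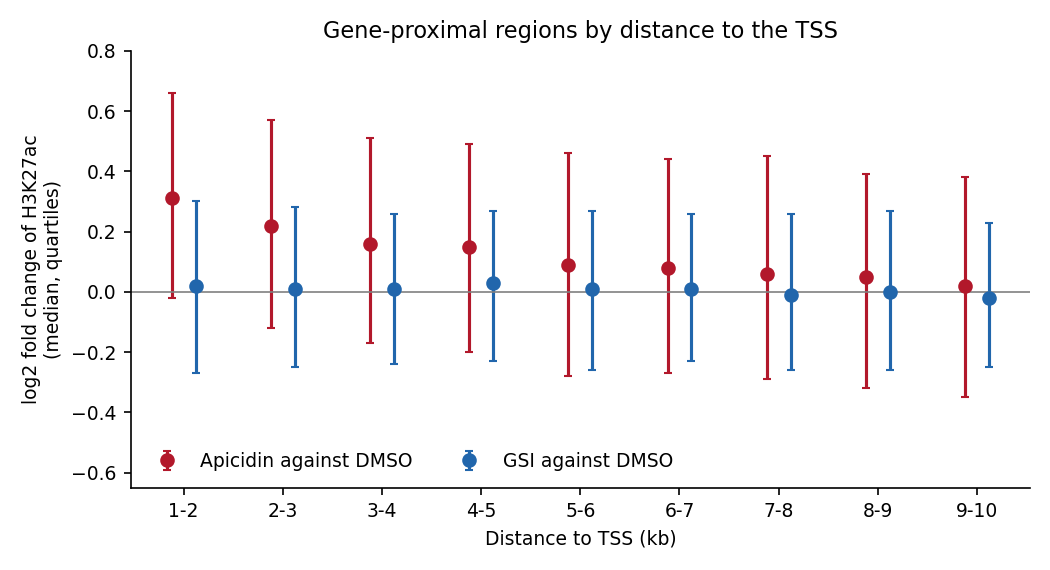
Median log2 fold change of gene-proximal regions (points) with quartiles (bars) in 1-kb classes of distance to the TSS, for apicidin and for GSI against DMSO. The apicidin median goes down from 0.31 in the nearest class to 0.02 in the farthest, while GSI medians stay near 0.

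The order of distances held among regions of like base mean. In the weakest quintile of base mean over all regions, the apicidin medians were 0.50, 0.37 and 0.27 at 1 to 2, 2 to 5 and 5 to 10 kb. In quintile 3 they were 0.22, 0.11 and -0.02, and in the strongest 0.06, 0.01 and -0.03. After centring, the medians of the 3 distance classes were 0.41, 0.28 and 0.16, and after subtracting the trend over base mean 0.22, 0.12 and 0.02. Base mean is an average that includes the treated libraries, so it is not independent of the change.

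Other regions without RBPJ overlap and under 5000 bp wide differed in level. The median log2 fold change with apicidin was 0.16 for gene-proximal regions, 0.02 for the 3180 regions within 1 kb of a TSS, -0.01 for the 17815 at 10 to 50 kb and -0.26 for the 6274 over a TSS. Of the last, 370 were higher and 2516 lower. In quintiles 2 to 5 of base mean the median of gene-proximal regions was the highest of the 4 classes, with 0.15, 0.07, 0.03 and -0.01. Regions over a TSS had -0.07, -0.18, -0.24 and -0.27 in those quintiles. In the strongest quintile the lead was narrow, with -0.03 for regions at 10 to 50 kb. In the weakest quintile, regions within 1 kb had 0.46 and gene-proximal regions 0.36. These classes share genes and often lie side by side, and no test of their difference was made.

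**Figure D2:**
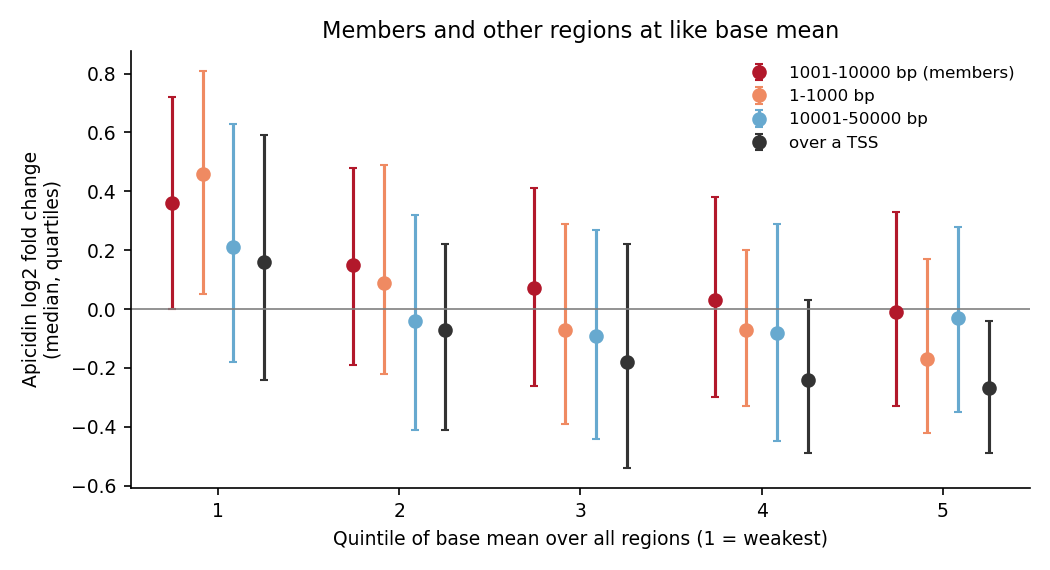
Median apicidin log2 fold change (points) with quartiles (bars) by quintile of base mean for gene-proximal regions and for regions within 1 kb, at 10 to 50 kb and over a TSS. Gene-proximal regions have the highest median in quintiles 2 to 5, and TSS-covering regions the lowest in every quintile. Quintiles 1 and 2 hold only 29 and 76 TSS-covering regions.

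Regions lying next to an acetylated promoter had the highest median with apicidin. The gap to the nearest TSS-covering region, of any gene, had a median of 3239 bp. At a gap under 0.5 kb, 294 of 2787 gene-proximal regions were higher with apicidin and 56 lower (10.5% and 2.01%), with a median log2 fold change of 0.32. At 0.5 to 1 kb (each class includes its lower limit) 103 of 1289 were higher and 33 lower (7.99% and 2.56%). At 1 to 2 kb the counts were 150 and 53 of 2053 (7.31% and 2.58%), and at 2 to 5 kb 303 and 195 of 3884 (7.80% and 5.02%). From there on decreases outnumbered increases, with 208 higher and 263 lower of 2854 at 5 to 10 kb (7.29% and 9.22%). At 10 kb or more 325 of 3070 were higher and 381 lower (10.6% and 12.4%). The share of increases was thus alike in the nearest and the farthest class, and that of decreases was lower in the nearest. In quintiles 3 to 5 of base mean the median was 0.24, 0.23 and 0.11 at a gap under 0.5 kb, and -0.08, -0.10 and -0.11 at 10 kb or more. Subtracting the trend over base mean left medians of 0.25 at a gap under 0.5 kb and 0.00 at 10 kb or more.

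**Figure D3:**
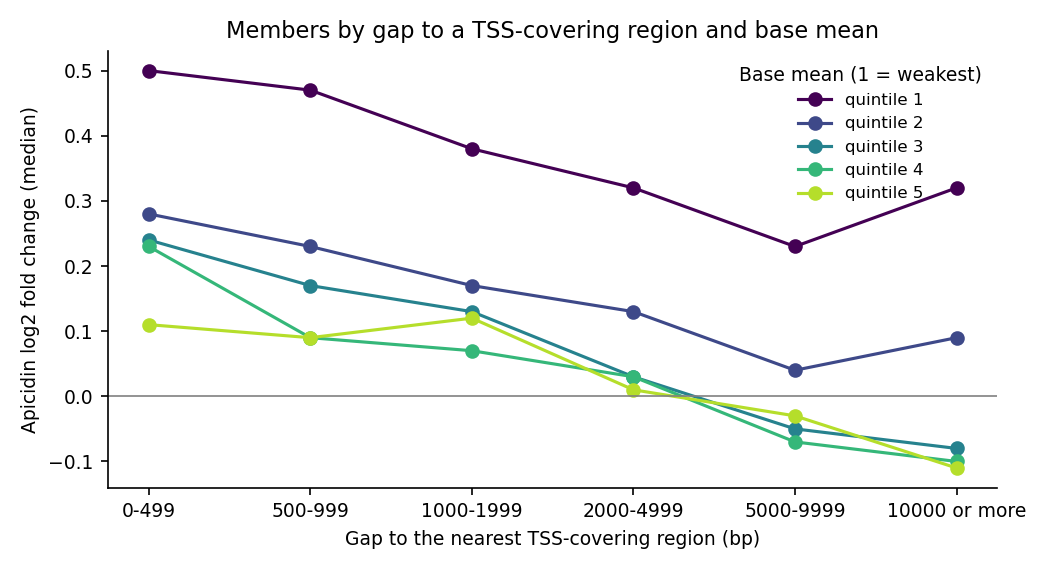
Median apicidin log2 fold change of gene-proximal regions by gap to the nearest TSS-covering region, with 1 line per quintile of base mean over all regions (1 is the weakest). Quintiles 3 to 5 lie above 0 at gaps under 2 kb and below 0 at gaps of 5 kb or more.

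The promoters beside those regions were more often lower than higher. The 2440 TSS-covering regions within 0.5 kb of a gene-proximal region had a median log2 fold change of -0.16 with apicidin, with 331 higher and 938 lower. In 79.3% of the 2787 pairs the proximal region had the larger log2 fold change, and the median difference was 0.44. Where the proximal region was called higher, its promoter neighbour was higher in 86 pairs, lower in 69 and not called in 139. Where it was called lower, the neighbour was higher in 5, lower in 34 and not called in 17. Over all 2787 pairs the neighbour was higher in 395, lower in 1059 and not called in 1333. The pairs were unlike in strength, with a median base mean of 37.0 for the proximal regions and 822 for the promoters, and the part that this played was not tested. With GSI the median difference was 0.02.

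The same comparison was made gene by gene against the strongest TSS-covering region of the assigned gene, which 11730 gene-proximal regions of 4311 genes had. Of 974 that were higher with apicidin, 263 belonged to genes whose promoter was higher, 220 to genes whose promoter was lower and 491 to genes whose promoter was not called. Of 540 that were lower, 27 had a higher, 301 a lower and 212 an uncalled promoter. Over all 11730 the promoter was higher for 1552, lower for 4312 and not called for 5866. Across the 11730 pairs Pearson's r was 0.22 for apicidin and 0.26 for GSI, as a description over pairs that share libraries and genes. Gene-proximal neighbours under 1 kb apart were more alike, with r of 0.58 over 5959 pairs. Among these, both were called in 252 pairs, and in 250 of them the direction was the same.

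The 8 largest increases with apicidin included 4 at genes of G protein-coupled receptors. Among members whose base mean reached the median of those tested, that of Ccr9, the receptor for the thymic and intestinal chemokine CCL25, had a log2 fold change of 3.85 ± 0.42 (SE, adjusted p = 4.96e-18) in the authors' deposited table. It lies on chromosome 9, 123669353 to 123670618. A region on the same chromosome at 123630843 to 123632521, assigned to the ciliary trafficking gene Lztfl1, rose by 3.07 ± 0.30 (adjusted p = 5.53e-22) in the authors' deposited table. The sialyltransferase gene St6gal1 rose by 2.53 ± 0.41 and Snai3, a Snail-family zinc finger gene, by 2.48 ± 0.19 (adjusted p = 4.11e-36) in the authors' deposited table. The orphan receptor gene Gpr25 rose by 2.43 ± 0.28 in the authors' deposited table, and the proton-sensing receptor gene Gpr65 by 2.34 ± 0.29. Ccr8, a chemokine receptor gene of regulatory and type 2 helper T cells, had 2.36 ± 0.86 in the authors' deposited table, with an adjusted p of 0.0299. The uncharacterised A930006K02Rik had 2.35 ± 0.35 there.

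The 8 largest decreases with apicidin were smaller in size and included 3 at genes of developmental transcription factors. A region 6125 bp from the TSS of Pdgfa, the platelet-derived growth factor A gene, fell by 1.94 ± 0.16 (adjusted p = 3.83e-30, chromosome 5, 139462329 to 139464781) in the authors' deposited table. Regions of the forebrain homeobox gene Emx1 and the mesoderm factor gene Mesp1 fell by 1.82 ± 0.20 and 1.71 ± 0.28 in the authors' deposited table. Mafa, a factor of the insulin gene promoter, fell by 1.70 ± 0.21 in the authors' deposited table, and Tnfaip2, a gene induced by tumour necrosis factor, by 1.84 ± 0.32. The other 3 were at C330006A16Rik, Zfhx2as and Fam124b, between -1.77 and -1.69 in the authors' deposited table. All 8 of these decreases and all 8 of the increases lay at least 4142 bp from any TSS-covering region. Weaker regions, outside the base-mean limit set for these 16, include one of Pde7a that rose by 3.07 ± 0.50 in the authors' deposited table at a gap of 99 bp.

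**Figure D4:**
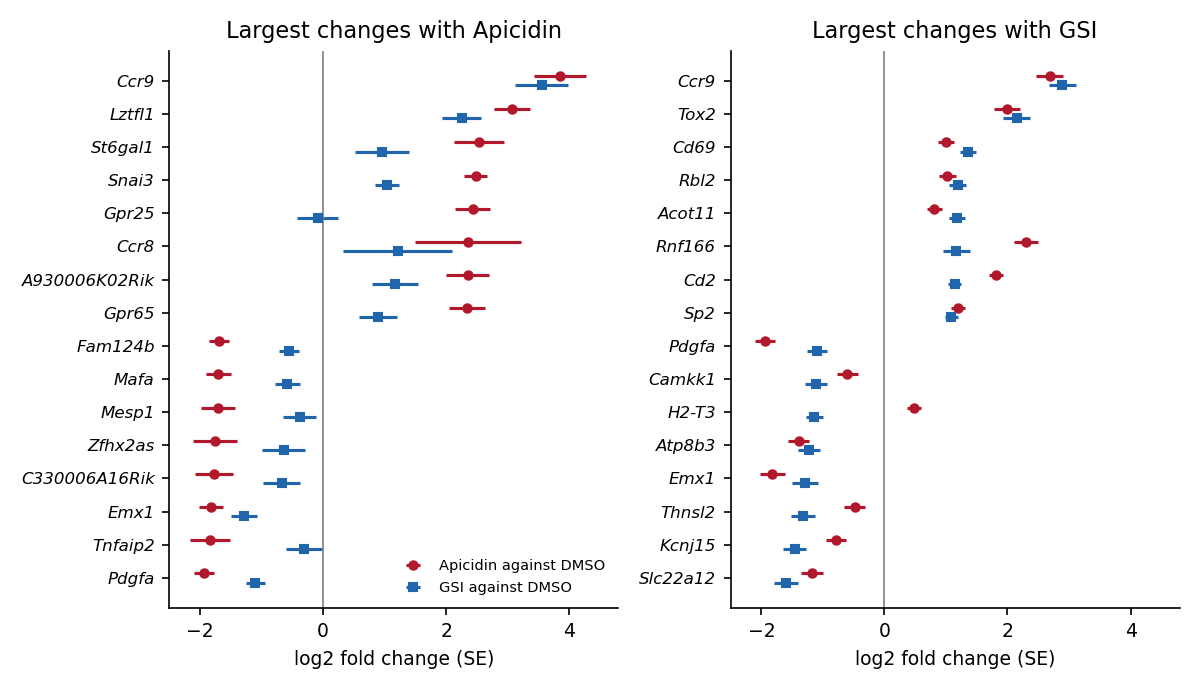
Deposited log2 fold changes (points) with SE (bars) of the gene-proximal regions with the 8 largest increases and 8 largest decreases for apicidin (left) and for GSI (right), each drawn for both treatments against DMSO. Ccr9 has the largest increase in both panels, and H2-T3 in the right panel lies above 0 with apicidin and below 0 with GSI. Only regions whose base mean reached the median of those tested were ranked.

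Several genes had most of their proximal regions change together. At Ccr9, 8 of 8 regions were higher with apicidin in the authors' deposited table, with log2 fold changes from 2.58 to 3.85 at distances of 1971 to 8660 bp. None of them lay closer than 32269 bp to a TSS-covering region of any gene, so the start of Ccr9 was not covered by a listed region. At Pde7a, which encodes a cyclic AMP phosphodiesterase, 7 of 11 were higher, and all 11 values were above 0 (0.38 to 3.07) in the authors' deposited table. At Vps37b, an ESCRT-I subunit gene, 6 of 8 were higher in the authors' deposited table, from 0.50 ± 0.10 at 6871 bp to 1.81 ± 0.19 at 1781 bp. After subtracting the trend over base mean, 1 of the 7 Pde7a regions and 1 of the 6 Vps37b regions were not called.

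Most genes with several called regions moved 1 way. Of 403 genes with 2 or more called proximal regions, 236 had all of them higher and 129 all lower. Aff4, a scaffold gene of the super elongation complex, had 5 of 7 higher in the authors' deposited table (0.95 to 1.64), and its 2 uncalled regions had 0.87 and 0.68. Slc45a4, a solute carrier gene, had 6 of 8 lower (-1.04 to -0.72) in the authors' deposited table, of which 1, with a width of 243 bp, was not called after centring. In all, 1057 genes had a higher and 816 a lower region with apicidin, and 38 had both.

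Rara, the retinoic acid receptor alpha gene, had called regions in both directions with apicidin. Its region at 2948 bp rose by 1.14 ± 0.27 (adjusted p = 1.90e-04) and its region at 8578 bp fell by 1.17 ± 0.35 (adjusted p = 0.00547) in the authors' deposited table. At Cyth1, a gene for an exchange factor of ARF GTPases, a weak region at 8604 bp had 1.54 ± 0.52 and one at 7490 bp -0.84 ± 0.19 in the authors' deposited table. Prkch encodes protein kinase C eta. One of its regions rose by 1.27 ± 0.15 with apicidin while falling by 0.64 ± 0.18 with GSI in the authors' deposited table. Others fell by 0.63 ± 0.23 and 0.51 ± 0.16 with apicidin in the authors' deposited table, of which the one at -0.63 was not called after centring or after subtracting the trend. The widest value, 3.19 ± 1.08 there, came from a base mean of 6.80, the lowest of all members, and was not called after subtracting the trend over base mean.

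A few regions were called against their own promoter. Weak regions of the RNA helicase gene Ddx3x, of Athl1 and of the splicing factor gene Zranb2 had log2 fold changes of 2.76 ± 0.97, 2.47 ± 0.72 and 2.32 ± 0.84 with apicidin in the authors' deposited table. Their promoters had -0.30 ± 0.08, -0.76 ± 0.10 and -0.66 ± 0.10 there. The base means of these 3 regions were 8.25, 12.4 and 9.04, against 1403, 642 and 915 for the promoters. After subtracting the trend over base mean, the Ddx3x and Zranb2 regions were no longer called.

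Among called proximal regions of T-lineage and of cytokine and chemokine receptor genes, nearly all were higher with apicidin, although most regions of both lists were not called. Of 137 proximal regions of T-lineage identity genes 27 were higher (19.7%, against 8.68% of all gene-proximal regions), 1 was lower and 109 were not called, with a median log2 fold change of 0.25. The higher ones belonged to 13 genes. Next to Ccr9, the adhesion receptor gene Cd2 had 3 of 6 regions higher, the strongest by 1.81 ± 0.11 in the authors' deposited table, and all 6 above 0. The only lower one was at Cd4, with -0.75 ± 0.25 (adjusted p = 0.0156) in the authors' deposited table. Of 80 regions of cytokine and chemokine receptor genes 23 were higher (28.8%), 1 was lower and 56 were not called (median 0.37), of which the 8 Ccr9 regions count in both lists. The lower one was at Cxcr4, the receptor for CXCL12, with -0.21 ± 0.08 in the authors' deposited table, and it was not called after centring. Named after their values were seen, 3 Cxcr6 regions near Ccr9 on chromosome 9 rose by 1.16 to 1.35 in the authors' deposited table, and the interleukin-12 receptor genes Il12rb1 and Il12rb2 by 0.75 to 1.83.

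Signalling and transcription factor lists differed in how often they were called. Of 102 regions of T cell receptor signalling genes 6 were higher (5.88%, below the 8.68% of all gene-proximal regions) and 3 lower (median 0.15), a split of 11 and 2 after centring and 10 and 2 after subtracting the trend. The adaptor gene Lcp2 rose by 0.65 ± 0.15 and the calcium-responsive factor gene Nfatc2 fell by 1.09 ± 0.18 in the authors' deposited table. Of 81 regions of haematopoietic transcription factor genes 14 were higher (17.3%) and 1 lower (median 0.12). Id2, an inhibitor of E proteins, rose by 1.19 ± 0.14 (adjusted p = 6.52e-15) in the authors' deposited table. The lower one was at Sox4 (-0.45 ± 0.07, 3467 bp) in the authors' deposited table, where another Sox4 region at 7627 bp rose by 0.28 ± 0.09. Of 52 regions of immediate early and AP-1 genes 13 were higher and 5 lower (34.6% called) (median 0.29), or 16 and 3 after centring, with the phosphatase gene Dusp6 at 0.89 ± 0.17 and the orphan nuclear receptor gene Nr4a3 at -0.62 ± 0.14 in the authors' deposited table.

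Of the chromatin genes, the HDAC/NCoR list was called at 14.3% and the acetyltransferase and bromodomain list at 2.44%, against 14.8% of all gene-proximal regions, and the difference was not tested. Of 49 regions of HDAC/NCoR complex genes 7 were higher and 0 lower by the authors' DESeq2 calls, against 9 higher and 2 lower by p-values before adjustment under 0.05, and the median was 0.32. Hdac10 rose by 2.02 ± 0.36 (adjusted p = 3.06e-07) in the authors' deposited table. Of 41 regions of acetyltransferase and bromodomain genes 0 were higher and 1 was lower by the DESeq2 calls, with 1 and 2 at an unadjusted p under 0.05. The lower one was at the coactivator gene Ncoa3 (-0.44 ± 0.12) in the authors' deposited table, and it was not called after subtracting the trend. After centring that list had 1 region higher and 1 lower.

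Growth, metabolism and stress lists were called at 8.51% to 14.3% with apicidin, at or below the 14.8% of all gene-proximal regions. Cell-cycle genes had 6 of 64 higher and 2 lower, with the cyclin gene Ccne1 at 0.88 ± 0.14 and a weak E2f1 region at -1.83 ± 0.48 in the authors' deposited table. Glycolysis and glucose uptake genes had 2 of 65 higher and 5 lower, with Gpi1, the second enzyme of glycolysis, at -1.01 ± 0.12 (adjusted p = 1.41e-15) and the muscle phosphofructokinase gene Pfkm at 0.41 ± 0.10 in the authors' deposited table. After centring the split of that list was 4 higher and 3 lower. Cholesterol and lipid synthesis genes had 1 of 47 higher and 3 lower, with the fatty acid synthase gene Fasn at 1.25 ± 0.43 in the authors' deposited table. Ribosomal protein genes had 4 of 35 higher and 1 lower, and interferon response genes 2 of 42 higher and 2 lower. In the last list the antiviral gene Oasl2 fell by 0.98 ± 0.15 and the signalling suppressor gene Socs3 rose by 1.47 ± 0.42 in the authors' deposited table.

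The lists of inhibitors, apoptosis and NF-kB genes had few calls with apicidin, at 11.5%, 5.71% and 8.70%, against 14.8% of all gene-proximal regions. By the DESeq2 calls 3 of 26 regions of cell-cycle inhibitors and p53 targets were higher and 0 lower (6 and 0 at an unadjusted p under 0.05), led by the cyclin G2 gene Ccng2 at 0.73 ± 0.19 in the authors' deposited table. Apoptosis genes had 0 of 35 higher and 2 lower (0 and 2), with the BH3-only gene Bid at -0.46 ± 0.13 in the authors' deposited table. NF-kB and cytokine genes had 2 of 23 higher and 0 lower (3 and 2), or 2 and 1 after subtracting the trend, with the NF-kB inhibitor gene Nfkbia at 0.48 ± 0.17 in the authors' deposited table.

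Marker genes of other cell types also had higher proximal regions, from few genes. The share higher with apicidin was 33.3% for myeloid and 23.1% for erythroid and megakaryocyte markers, against 8.68% of all gene-proximal regions. It was 14.3% for natural killer and innate lymphoid and 12.5% for B-lineage markers. In that order the higher regions belonged to 3, 2, 2 and 1 genes. By the DESeq2 calls 5 of 15 myeloid regions were higher and 0 lower (5 and 0 at an unadjusted p under 0.05), led by the integrin gene Itgam at 0.83 ± 0.18 in the authors' deposited table. The counts were 3 of 13 higher and 0 lower for erythroid and megakaryocyte markers (4 and 0), 2 of 14 and 0 for natural killer and innate lymphoid markers (8 and 0), 1 of 8 and 0 for B-lineage markers (2 and 1) and 1 of 1 for neuronal markers. After centring, 8 of the 14 natural killer and innate lymphoid regions were higher. Fibroblast and epithelial markers had 2 of 15 higher and 5 lower (46.7% called, against 14.8% of all gene-proximal regions). After subtracting the trend the split was 3 and 4, and the E-cadherin gene Cdh1 had -0.87 ± 0.18 in the authors' deposited table. Apart from the fibroblast and epithelial list, calls of these markers went the way of the T-lineage and receptor genes. The markers' part in those counts was not tested.

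GSI, which withdraws Notch cleavage, moved fewer gene-proximal regions, in similar numbers each way. Of 15937, 4643 had an adjusted p, and the other 11294 lay at or below a base mean of 72.1. By the calls of the authors' deposited table, 242 of those tested were higher and 246 lower (5.21% and 5.30%), and 4155 were not called. Of the same 4643 regions 856 were higher and 770 lower with apicidin. Over all tested regions 13.8% were called, 6.62% higher and 7.17% lower, so both shares were below those of the table. The median log2 fold change was 0.01, and called regions had medians of 0.60 and -0.60. At least 1 on the log2 scale was reached by 29 higher and 29 lower regions.

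The largest decreases with GSI lay at genes of varied function. The urate transporter gene Slc22a12 fell by 1.60 ± 0.20 (adjusted p = 2.53e-13, chromosome 19, 6548824 to 6549727), and the potassium channel gene Kcnj15 had -1.46 ± 0.18 in the authors' deposited table. Regions of Thnsl2, Emx1 and the phospholipid flippase gene Atp8b3 fell by 1.32 ± 0.19, 1.29 ± 0.21 and 1.23 ± 0.18 in the authors' deposited table. H2-T3, which encodes the thymus leukaemia antigen, fell by 1.14 ± 0.14 with GSI and rose by 0.48 ± 0.12 with apicidin in the authors' deposited table. The remaining 2 were Camkk1, a calcium/calmodulin-dependent kinase kinase gene (-1.11 ± 0.18), and Pdgfa (-1.10 ± 0.16), in the authors' deposited table.

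The 8 largest increases with GSI under the same base-mean limit included the surface protein genes Ccr9, Cd69 and Cd2 beside genes of varied function. A weaker region of Lztfl1, outside that limit, rose by 2.25 ± 0.31 in the authors' deposited table. Under GSI, the Ccr9 region at 1971 bp rose by 2.89 ± 0.22, with an adjusted p of 1.72e-35 among the authors' deposited table values. All 4 tested Ccr9 regions rose with GSI (2.76 to 3.55), and the 4 untested ones had values of 2.37 to 3.99 in the authors' deposited table. Tox2, an HMG-box factor gene, rose by 2.15 ± 0.22 and the activation marker gene Cd69 by 1.36 ± 0.13 in the authors' deposited table. The retinoblastoma relative Rbl2 and the thioesterase gene Acot11 rose by 1.19 ± 0.14 and 1.18 ± 0.13 in the authors' deposited table. The others were Rnf166, an E3 ubiquitin ligase gene (1.17 ± 0.22), Cd2 (1.14 ± 0.11) and the zinc finger factor gene Sp2 (1.09 ± 0.11), in the authors' deposited table. The Rnf166 region (chromosome 8, 124993461 to 124995275) lies within a few kb of the Snai3 region that rose with apicidin (124987585 to 124989797), so they may not be independent.

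Gene-proximal regions of Notch targets fell or were not called with GSI. Of 37 regions of 13 Notch/RBPJ target genes 16 were tested, of which 8 fell, 8 were not called and 0 were higher by the DESeq2 calls. At an unadjusted p under 0.05, 13 of the 37 were lower and 2 higher. The median over the 37 was -0.41. All of these regions lack an RBPJ overlap by the rule of selection. Notch3, which encodes a Notch receptor and is itself a Notch target, had 3 of 4 tested regions lower. In the authors' deposited table its region at 6490 bp (chromosome 17, 32295496 to 32297306) fell by 1.07 ± 0.19, that at 5653 bp by 0.80 ± 0.20 and that at 9076 bp by 0.27 ± 0.10.

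The other decreases in that list came from 4 genes. Il2ra, the interleukin-2 receptor alpha gene, fell by 1.15 ± 0.23 at 8351 bp and by 0.98 ± 0.25 at 3509 bp in the authors' deposited table. Nrarp, a feedback inhibitor of Notch signalling, fell by 0.95 ± 0.26 in the authors' deposited table. Tcf7, the gene of the T cell factor TCF1, fell by 0.38 ± 0.10 and the adhesion receptor gene Cd44 by 0.45 ± 0.16 in the authors' deposited table, both named after their values were seen. With apicidin the same 37 regions gave 3 higher, 4 lower and 30 not called, with a median of 0.03 that became -0.05 after subtracting the trend over base mean. After centring, 4 were higher and 3 lower. The cyclin D3 gene Ccnd3 rose by 0.50 ± 0.10 and Nrarp fell by 1.10 ± 0.25 with apicidin in the authors' deposited table.

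Other genes with several proximal regions lower under GSI were not in that list. Ahi1, the jouberin gene next to Myb, had 3 of 4 tested regions lower, the strongest by 0.79 ± 0.12 (adjusted p = 9.72e-09), and this region rose by 0.42 ± 0.11 with apicidin in the authors' deposited table. Coro2a, a coronin gene, had 3 of 4 tested regions lower by 0.80 to 0.88, and none of its 10 regions was called with apicidin (-0.36 to 0.45) in the authors' deposited table. The noncoding C130026L21Rik had 3 of 3 tested regions lower (-1.68 to -0.48), and the same 3 were lower with apicidin (-1.17 to -0.53) in the authors' deposited table. Of 41 genes with 2 or more called regions under GSI, 15 had all higher and 25 all lower. The exception was Pvr, the poliovirus receptor gene, with -0.31 ± 0.10 at 6965 bp and 0.77 ± 0.23 at 5455 bp in the authors' deposited table.

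**Figure D5:**
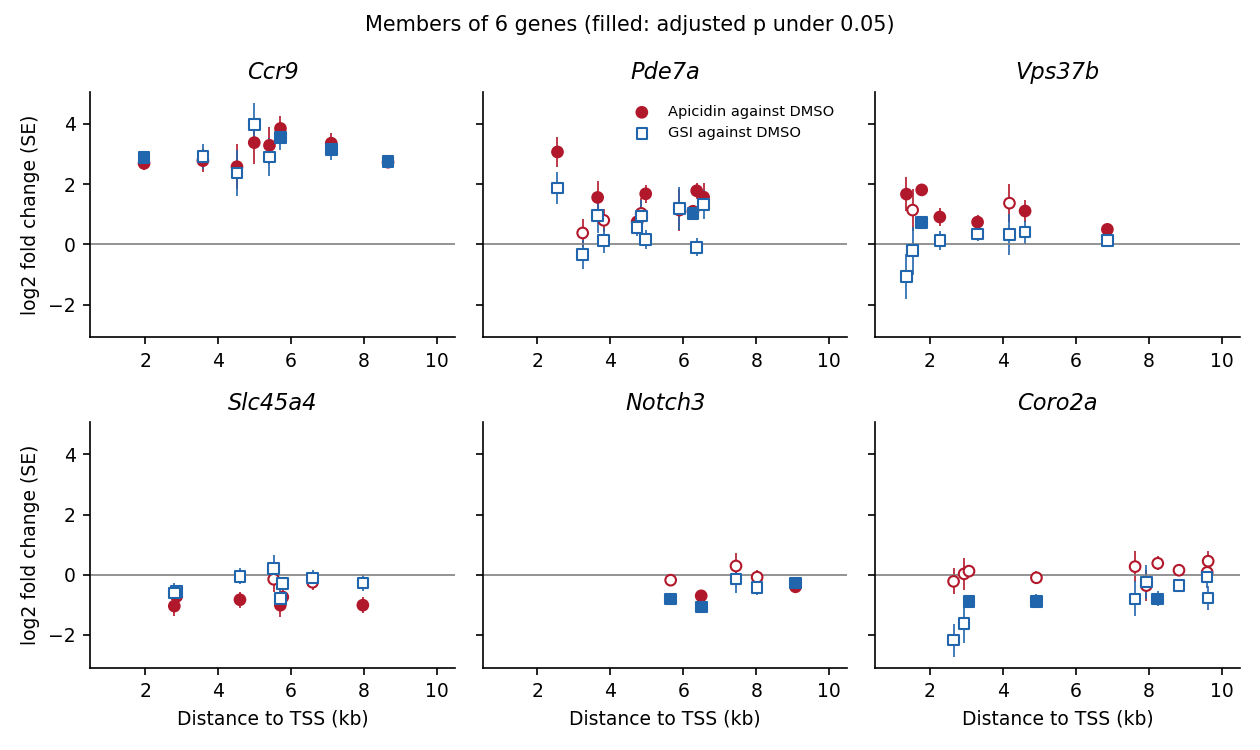
Deposited log2 fold changes (points) with SE (bars) of every gene-proximal region of 6 genes against distance to the TSS, for apicidin (circles) and GSI (squares) against DMSO; filled symbols have an adjusted p under 0.05, and open GSI symbols include untested regions. Ccr9 lies above 2 in both treatments throughout, and Coro2a lies below 0 with GSI and near 0 with apicidin.

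Nearness to RBPJ went with fewer increases under GSI, whereas the share of decreases did not change steadily with the gap. Of 428 tested gene-proximal regions under 5 kb from an RBPJ-overlapping region 11 were higher and 25 lower (2.57% and 5.84%). At 5 to 20 kb 11 of 343 were higher and 26 lower (3.21% and 7.58%). At 20 to 100 kb 50 of 1006 were higher and 38 lower (4.97% and 3.78%). At 100 kb or more 170 of 2863 were higher and 157 lower (5.94% and 5.48%). The shares over all tested gene-proximal regions were 5.21% and 5.30%. Where the gene had an RBPJ-overlapping region anywhere, 16 of 602 tested regions were higher and 47 lower (2.66% and 7.81%). For other genes 226 and 199 of 4041 were (5.59% and 4.92%). No test of these differences was made, and regions of a gene are not independent. With apicidin, regions under 5 kb from an RBPJ-overlapping region had a median of 0.25, with 151 higher and 46 lower (8.39% and 2.56%). Those at 100 kb or more had 0.16, with 891 and 662 (9.39% and 6.98%).

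Promoter and proximal region mostly went together under GSI where both were called. Of 140 higher proximal regions with a promoter region, the promoter was higher for 37, lower for 2, not called for 99 and untested for 2. Of 155 lower ones it was higher for 5, lower for 44, not called for 104 and untested for 2. Of the 3 genes named for the opposite pattern, Gsn, the gelsolin gene, had -0.74 ± 0.23 at a region 9977 bp away and 0.63 ± 0.10 at the promoter in the authors' deposited table. Abhd15, a hydrolase-fold gene, had a proximal region at 2966 bp with 0.46 ± 0.08 only 89 bp from the promoter region, which had -0.34 ± 0.09 in the authors' deposited table. Both Abhd15 regions were strong, with base means of 1201 and 1027. Ppp2r5c, a phosphatase 2A subunit gene, had -0.49 ± 0.17 at 5966 bp and 0.34 ± 0.10 at the promoter in the authors' deposited table.

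The other lists are set beside the 10.5% of gene-proximal regions and 13.8% of all regions called under GSI. T-lineage genes had 8 higher and 3 lower of 53 tested (20.8% called), the 8 coming from 4 genes. Lef1, a partner gene of Tcf7, fell by 0.58 ± 0.15 at 1634 bp in the authors' deposited table. Cytokine and chemokine receptors had 5 higher and 3 lower of 23 tested (34.8%). Of the 5, 4 were Ccr9 regions, which count in the T-lineage list too. The lower ones include the Il2ra regions given above among Notch targets. Haematopoietic transcription factors had 1 higher and 3 lower of 30 tested (13.3%), with Foxp1, a forkhead gene of lymphocyte quiescence, at 0.81 ± 0.15 in the authors' deposited table. Glycolysis genes had 0 higher and 3 lower of 18 tested (16.7%) by the DESeq2 calls (1 and 4 at an unadjusted p under 0.05), with Gpi1 at -0.44 ± 0.12 in the authors' deposited table. Immediate early and AP-1 genes had 2 higher and 0 lower of 24 (8.33% called, 13 and 0 at an unadjusted p under 0.05), with the phosphatase gene Dusp5 at 0.59 ± 0.13 in the authors' deposited table. Cell-cycle inhibitors and p53 targets had 2 higher and 0 lower of 8 (2 and 0), both at Sesn2, a sestrin gene. Apoptosis genes had 1 higher, the BH3-only gene Bbc3 (0.68 ± 0.16), and 1 lower, Bcl2l11 (-0.86 ± 0.29), of 9 tested (22.2%) in the authors' deposited table.

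In the remaining lists 0 to 2 regions were called under GSI. T cell receptor signalling genes had 1 higher and 0 lower of 33 (3 and 3 at an unadjusted p under 0.05), cell-cycle genes 1 and 0 of 14 (3 and 2), erythroid markers 1 and 0 of 5 (4 and 0), NF-kB and cytokine genes 0 and 1 of 7 (0 and 2), and fibroblast and epithelial markers 0 and 2 of 9 (0 and 3). By the DESeq2 calls 0 regions changed in either direction in 8 lists. At an unadjusted p under 0.05 these had 2 higher and 2 lower (HDAC/NCoR complex), 0 and 5 (interferon response), 2 and 0 (cholesterol), 1 and 0 (myeloid), 1 and 0 (natural killer), and 0 and 0 in the acetyltransferase, ribosomal and B-lineage lists. The single neuronal region was untested.

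A difference between the treatments was called at few gene-proximal regions, and more often at strong ones. In the strongest quintile of base mean it was above 0 for 123 and below 0 for 156 of 1111. In the weakest it was above 0 for 4 and below 0 for 0 of 4508. A region without such a call is not shown to respond alike. The difference of the deposited log2 fold changes, apicidin minus GSI, was above 0 for 267 and below 0 for 269 of 15937 at an adjusted p under 0.05 (normal test, Benjamini-Hochberg adjustment over all regions). Over all 56342 regions the difference was above 0 for 1698 (3.01%) and below 0 for 3155 (5.60%). After centring both comparisons the counts were 382 and 167. The DMSO libraries are shared by both comparisons, so the SE of the difference is an upper bound. The region of Lef1 at 1634 bp had a difference of 2.31 ± 0.20 (adjusted p = 1.34e-27), with 1.73 ± 0.13 for apicidin and -0.58 ± 0.15 for GSI in the authors' deposited table. For H2-T3 the difference was 1.63 ± 0.19 (adjusted p = 4.28e-15), and for the strongest Ahi1 region 1.21 ± 0.17 (adjusted p = 9.65e-11). For the Ccr9 region of largest increase it was 0.30 ± 0.60 (adjusted p = 0.921), which leaves differences of either sign possible.

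Called regions among the strongest gene-proximal ones were more often lower than higher with apicidin. Of the 365 in the highest decile of base mean, 74 were higher, 137 lower and 154 not called, with a median of -0.13, near the -0.0991 of the stronger regions of the table, and 50 were higher and 54 lower with GSI. The 5 strongest in the authors' deposited table were at Gm7244 (-1.01 ± 0.06), Tnfrsf18 (-0.40 ± 0.07), Mir3968 (-0.20 ± 0.07), Elovl5 (-0.59 ± 0.07) and Osbpl8 (-0.34 ± 0.07), with base means of 2338 to 2866. Tnfrsf18 encodes the co-stimulatory receptor GITR and Elovl5 a fatty acid elongase. None of the 5 was called with GSI, with values from 0.03 to 0.17 in the authors' deposited table. Calls followed width and strength together, since 4.75% of regions up to 0.5 kb wide were called with apicidin and 53.1% of those over 2 kb. The median base means of these classes were 25.7 and 457.

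The 5 genes with most proximal regions varied in their calls. Acot7 had 1 of 18 called with apicidin and 0 of 7 tested with GSI, and Fbxw7, a ubiquitin ligase gene whose product degrades Notch, had 1 of 16 and 0 of 5. Mbp and Stat5b had 1 and 3 of 15 called with apicidin, and 0 of 5 and 0 of 8 tested with GSI. Cyth1 had 4 of 15 called with apicidin, 3 higher and 1 lower, and 1 of 4 tested with GSI, which was lower. At the limits of the selection, the median with apicidin was 0.30 for the 234 regions up to 0.1 kb inside the lower distance limit and 0.32 for the 214 up to 0.1 kb outside it. It was 0.02 for the 1093 regions up to 1 kb inside the upper limit and 0.01 for the 958 up to 1 kb outside it. Regions 4.5 to 5 kb wide, the widest inside, had a median of -0.06 over 57 regions, and those of 5 to 5.5 kb had 0.09 over 48.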

How the data were processed

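H3K27ac was measured by ChIP-seq in 6 libraries. Per the submitters' processing notes FastQC, Bowtie2, SAMtools and deepTools were used with the mouse build mm9, without versions. The read counter, the caller of regions and the libraries it was run on: not given in the sources used here. Per the file headers the authors deposited DESeq2 output per region. The base mean is a signal made by the authors as a mean of normalised counts. The log2 fold changes with SE, the Wald statistic (a score), the p-values and the adjusted p-values are the authors' deposited ones. The headers name no reference, which was taken to be DMSO. Regions without an adjusted p for GSI (30586 of 56342, at or below a base mean of 72.1) were kept as untested. No column of single libraries was left over (0), so no model was refitted, and depth per library is unknown.

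Members and lists (22 lists, 496 genes) were chosen with earlier results of these data known. Calls are deposited adjusted p under 0.05. Own Benjamini-Hochberg adjustment gave the deposited values within 5.40e-07 for apicidin and 1.03e-06 for GSI. Gaps between regions, medians and counts were computed in Python 3.11.15 with pandas 2.3.3, numpy 2.4.6 and scipy 1.17.1, and figures drawn with matplotlib 3.10.9; rescaling and the difference test were tested on simulated data. In place of the planned direct contrast of the treatments, the log2 fold changes were subtracted and divided by the square root of their summed squared SEs. Regions named are the 8 largest changes each way among members whose base mean reached the median of those tested, 1 per gene; the smallest adjusted p each way per list; 5 genes with most calls all in 1 direction; 3 genes with opposed members or an opposed promoter; and the 5 strongest regions and 5 genes with most regions. Gene symbols are the authors', and 12 members carry 3 symbols altered into dates. Promoters were matched by symbol for 4737 of 6423 genes (73.8%), so no property of promoters was compared over sets of genes, a check that is void at that share.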

Additional observations from a re-analysis of the deposited data

How the results depend on the processing

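No paired analysis was possible because the table analysed gives fold changes and no values of single libraries; for the same reason no replicate could be left out. Against 1383 higher and 981 lower gene-proximal regions with apicidin, an adjusted p under 0.01 left 819 and 623, and a log2 fold change of at least 1 left 609 and 260. With 1 region per gene 814 were higher, and among regions tested in both comparisons 856 were higher and the median fell to 0.03, both settings holding fewer regions. With GSI the counts at 0.01 were 139 higher and 153 lower, and at a change of at least 1 they were 29 and 29, against 242 and 246. For apicidin minus GSI, centring both comparisons moved the lower count to 167 against 269. The direction of no named region reversed on centring or on subtracting the trend over base mean. Of 87 named values for apicidin 3 lost their call on centring and 8 on subtracting the trend, whereas all 50 for GSI kept theirs under both. Weak regions have the largest SEs, and 11294 of 15937 had no adjusted p for GSI, all at or below a base mean of 72.1. With the p-values of all regions adjusted and no filter on base mean, 218 were higher and 241 lower with GSI.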

Other observations

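Gene-proximal regions assigned to microRNA genes numbered 219, of which 17 were higher and 27 lower with apicidin (median log2 fold change -0.01). With GSI 2 of 77 tested were higher and 1 lower. These calls made up 20.1% with apicidin and 3.90% with GSI, against 14.8% and 10.5% of all gene-proximal regions. The 1333 regions assigned to noncoding transcripts had a median of 0.13 with apicidin (116 higher and 115 lower), and the 14604 assigned to coding transcripts 0.16 (1267 higher and 866 lower).

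Regions of genes with no TSS-covering region in the table numbered 4207. With apicidin 409 of them were higher and 441 lower (20.2% called), against 974 and 540 of the 11730 whose gene had one (12.9% called). At the same distances, 213 regions of 5000 bp or wider had 82 higher and 53 lower with apicidin, and 44 regions with an RBPJ overlap had 6 higher and 17 lower.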
